A study of Mus musculus with 6 samples.

Results

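The glycolysis genes were the glucose transporter gene Slc2a1 and 9 genes of the enzymes that turn glucose into lactate, namely Hk2, Pfkp, Aldoa, Tpi1, Gapdh, Pgk1, Eno1, Pkm and Ldha. These 10 genes were taken from the 55401 genes of each table by symbol, and all 10 passed the filter on low values that 14156 genes passed. Poly(A) RNA was sequenced in 3 groups of 2 libraries each, 6 in all, from the mouse embryonic stem cell (mESC) line 46C. By the labels, the control cells stably expressed the biotin tag alone, 1 other group expressed Rbbp4 with that tag (Rbbp4 OE) and the other Rbbp7 with it (Rbbp7 OE), all with no further treatment. By the study's methods, lines made with a FLAG-Avitag lentiviral vector, alone or with Rbbp4 or Rbbp7, also carried the biotin ligase BirA. These lines were selected with blasticidin for BirA and puromycin for the vector. The titles call the controls only 46C_ctrl, and the methods do not say which control line gave these libraries. Whether pools or single clones were used was not given in the sources used here. All groups grew in high-glucose medium with serum, pyruvate, GlutaMAX, LIF and the inhibitors Chir99021 and PD0325901. No label said that the libraries of a group came from separate cultures, so each p-value measures only the spread between these libraries, which may be technical.

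Glycolysis splits glucose into pyruvate in a chain of enzyme steps in the cytosol. The upper steps spend ATP to phosphorylate and split the sugar, and the lower steps give ATP and NADH. Lactate dehydrogenase returns NADH to NAD by turning pyruvate into lactate, and mESCs are known to use this route heavily. RBBP4 and its close homolog RBBP7 are histone-binding subunits of several chromatin complexes. The comparisons below asked how the RNA of each step stood when either homolog was in excess.

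The groups differed in the overexpressed gene as labelled. Rbbp4 was at 146 and 147 TPM (a length-scaled share of all transcripts, with the same total in each library) in the control libraries and at 270.0 and 271 TPM in Rbbp4 OE (log2 fold change 0.88, adjusted p = 0.0017, limma). Rbbp7 was at 239 and 237 TPM in the controls and at 725 and 748 TPM in Rbbp7 OE (log2 fold change 1.63, adjusted p = 2.27e-04, limma). The identity of the cells was read from 8 stem cell markers (Pou5f1, Nanog, Sox2, Zfp42, Esrrb, Klf4, Dppa5a and Tdgf1), whose summed level was 7879 to 8107 TPM in the controls, 8508 to 8799 TPM in Rbbp4 OE and 8511 to 8743 TPM in Rbbp7 OE. More than any other gene, Dppa5a carried this sum, at 4520 and 4166 TPM in the controls and at 4740 and 5134 TPM in Rbbp4 OE. Nanog, Esrrb, Klf4 and Tdgf1 were lower in both Rbbp4 OE libraries than in both controls, as in Klf4, at 178 and 239 TPM in the controls and at 160 and 141 TPM in Rbbp4 OE. Pou5f1 and Dppa5a were higher in both, and the libraries of Sox2 and Zfp42 overlapped. Of all genes tested, 37.1% were lower and 20.8% higher without overlap in this comparison. Marker sums of 6 fibroblast or feeder genes were 4.48 to 5.59, 9.09 to 11.3 and 8.75 to 15.5 TPM in the same order. Of these, Postn and Lum were listed at 0 in all 6 libraries, whereas the collagen genes were highest in Rbbp7 OE. Col1a1 was at 0.81 and 0.86 TPM there and at most 0.46 TPM elsewhere, Col1a2 was at 1.3 and 0.79 TPM and at most 0.11 TPM elsewhere, and Col3a1 was at 6.39 TPM in Rbbp7 OE replicate 1 and at most 0.06 TPM in the other 5 libraries. The sums of 4 trophoblast genes were 5.71 to 6.92 TPM in the controls, 3.38 to 4.21 TPM in Rbbp4 OE and 3.54 to 3.99 TPM in Rbbp7 OE. In the same order, those of 4 primitive endoderm genes were 0.75 to 1.09, 0.41 to 1.03 and 0.92 to 2.81 TPM. Those of 3 neural genes were 6.16 to 6.75, 7.31 to 7.37 and 5.41 to 5.47 TPM. Of these markers, Pou5f1 rose by 0.25 on the log2 scale in Rbbp4 OE (adjusted p = 0.0334, limma), Nanog fell by 0.23 (adjusted p = 0.0393) and Thy1, of the fibroblast list, rose by 0.96 (adjusted p = 0.0192). At an adjusted p under 0.05 with limma, 3.29% of all genes tested rose and 8.07% fell. Transcripts of mitochondrial genes made up 8.97% and 9.78% of the total in the controls, 10.5% and 9.89% with Rbbp4 OE, and with Rbbp7 OE 11.2% and 11.02%, and the part of these marker and mitochondrial levels in the results below was not tested. In bulk RNA, fewer cells of a type and less RNA per cell cannot be told apart. Sequencing depth was not kept in TPM and is unknown.

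The glycolysis genes were among the most abundant transcripts of these cells. In the control libraries their levels ran in the order Gapdh, Pkm, Aldoa, Eno1, Ldha, Tpi1, Pgk1, Slc2a1, Hk2 and Pfkp, from a mean of 6787 TPM for Gapdh to 86.7 TPM for Pfkp. Among the 14156 genes ranked by mean TPM over all libraries, Gapdh was at place 7, Pkm at 100, Aldoa at 109, Eno1 at 158, Ldha at 181, Tpi1 at 429 and Pgk1 at 493. The transporter and the kinases of the upper steps lay lower, with Slc2a1 at place 1346, Hk2 at 1539 and Pfkp at 1675. Between neighbours in the control order, only Slc2a1 and Hk2, and Hk2 and Pfkp, had libraries that overlapped. The order was the same in Rbbp7 OE, where no neighbours overlapped. In Rbbp4 OE, Aldoa stood above Pkm with no overlap between their libraries, and only Hk2 and Pfkp overlapped. Gapdh alone gave 51.9% to 54.7% of the summed level of the 10 genes in each library.

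**Figure D1:**
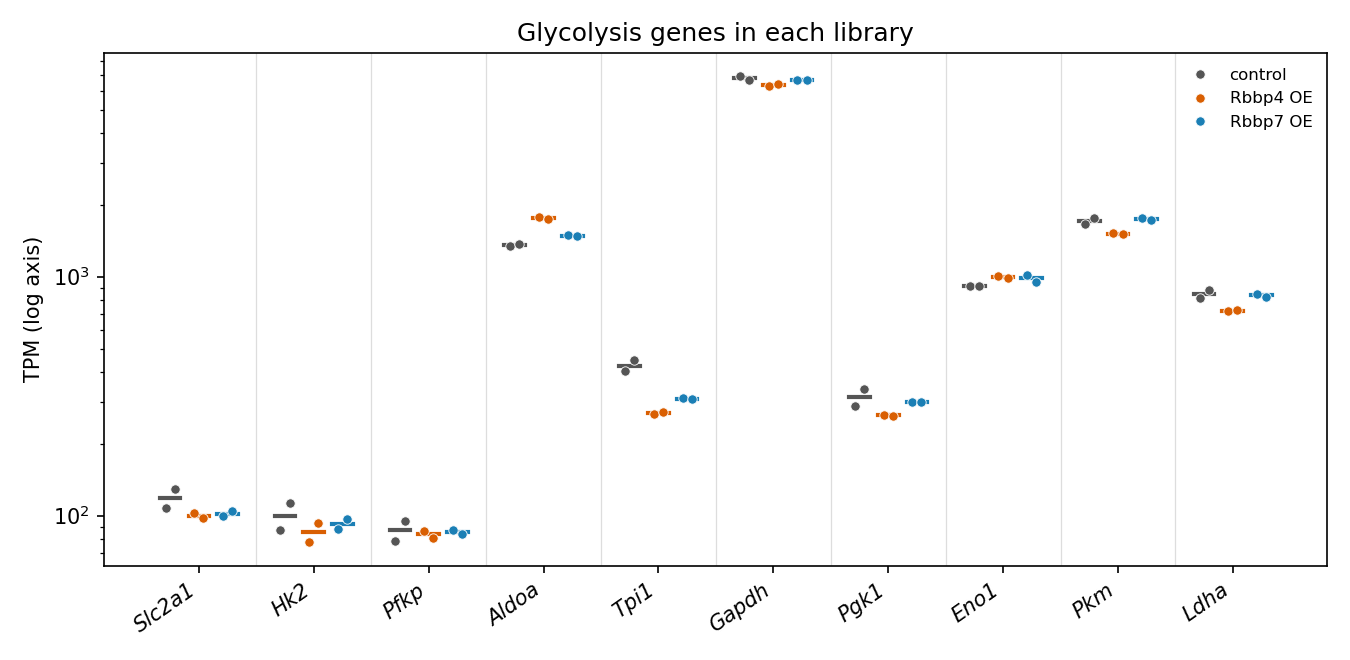
TPM of the 10 glycolysis genes in each library, on a log axis; points are the 2 libraries of each group and bars their mean. Aldoa was highest and Tpi1 lowest in Rbbp4 OE, while the libraries of Hk2 and Pfkp overlapped between groups.

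The 250 bases before annotated starts are shown for 3 genes, because they differ in the motifs described next and in how their RNA stood in Rbbp4 OE. They were taken from RefSeq on GRCm38.p6 and read 5′ to 3′ on the gene's strand, and capitals mark ACGTG or GCGTG on either strand, the core that hypoxia-inducible factors are known to bind. The windows are Ldha at chr7:46845554-46845803 (plus strand), Pgk1 at chrX:106186850-106187099 (plus strand) and Aldoa at chr7:126799255-126799504 (minus strand, an inner start of the gene).
Ldha: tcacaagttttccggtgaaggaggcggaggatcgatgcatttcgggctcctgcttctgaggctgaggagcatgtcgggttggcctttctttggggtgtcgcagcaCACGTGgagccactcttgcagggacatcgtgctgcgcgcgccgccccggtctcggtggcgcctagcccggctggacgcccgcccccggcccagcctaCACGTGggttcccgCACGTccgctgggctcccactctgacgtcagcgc
Pgk1: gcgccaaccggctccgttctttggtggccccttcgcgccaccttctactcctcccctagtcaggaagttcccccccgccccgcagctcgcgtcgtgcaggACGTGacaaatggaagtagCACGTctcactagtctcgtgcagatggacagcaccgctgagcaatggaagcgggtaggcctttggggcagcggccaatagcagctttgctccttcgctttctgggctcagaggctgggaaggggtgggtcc
Aldoa: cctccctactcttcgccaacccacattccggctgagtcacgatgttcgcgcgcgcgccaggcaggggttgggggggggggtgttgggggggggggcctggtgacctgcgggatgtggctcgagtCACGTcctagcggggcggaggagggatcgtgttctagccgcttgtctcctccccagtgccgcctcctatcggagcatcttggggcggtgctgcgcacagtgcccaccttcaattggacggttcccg
ACGTG or GCGTG lay in the window nearest the outer start of 7 of the 10 genes, against 38.6% of all 32851 windows of this length. Each of the 10 genes was counted by 1 window. The full set of windows can hold several starts of a gene and was not chosen by expression, so its shares are not matched to the 10 genes. The nearest windows of Aldoa, Tpi1 and Pkm held no such letters, whereas the inner window of Aldoa shown above held 1 ACGTG match. The Ldha window held 5 ACGTG matches, because each of its 2 palindromic CACGTG motifs (the E-box) counted on both strands. The bases just after that Ldha start, and those after the counted Eno1 start, were not found as an unbroken stretch in any GENCODE transcript. Those after the other Ldha start were found, and its window held 0 ACGTG, 0 CACGTG and 1 GCGTG match. CACGTG lay in 6.02% of all windows and in that of 1 glycolysis gene. The GC box GGGCGG lay in the windows of 7 of the 10 genes and in 32.7% of all windows. A match describes letters in these windows, and no binding was analysed here.

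In Rbbp4 OE, the glycolysis genes did not move as a block: Aldoa rose by 29.1%, Tpi1 fell by 36.6%, and Pkm and Ldha fell by smaller amounts. The other 6 genes did not pass the test at an adjusted p under 0.05. Thus 4 of 10 genes passed, 1 higher and 3 lower, against 11.4% of all genes tested (3.29% higher and 8.07% lower). Among the 1675 genes at or above the lowest mean level of the 10 genes, 85.2 TPM, the share was 23.8%. The median log2 fold change was -0.20 over the 10 genes and -0.077 over all genes tested. By the study's stricter rule (adjusted p under 0.01 and over 2-fold), 0 of 10 genes passed with limma and 0.516% of all genes did, while 8 of 10 had an unadjusted p under 0.05 against 29.6% of all genes.

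Of the listed genes that bring glucose in and commit it, Slc2a1, Hk2 and Pfkp, none passed. Slc2a3, another transporter gene given further on, did pass. Slc2a1, which encodes the transporter GLUT1 (ENSMUSG00000028645.11, GRCm38 chromosome 4, 119108711 to 119137983, plus strand), was at 107 and 129 TPM in the controls and at 102 and 97.7 TPM in Rbbp4 OE. Both Rbbp4 OE libraries lay below both controls, with a log2 fold change of -0.23 (95% interval -0.47 to -0.0017, adjusted p = 0.167, limma). Hk2 encodes hexokinase 2, which phosphorylates glucose, and maps to chromosome 6, 82725025 to 82774454, on the minus strand (ENSMUSG00000000628.10). It was at 86.7 and 113 TPM in the controls and at 77.3 and 93.3 TPM in Rbbp4 OE. The groups overlapped, and the log2 difference of -0.22 (-0.59 to 0.14, adjusted p = 0.374) was within the spread of the libraries. Pfkp encodes the platelet-type phosphofructokinase of the committing step and lies on chromosome 13, 6579768 to 6648777, on the minus strand (ENSMUSG00000021196.14). It was at 78.3 and 95.1 TPM in the controls and at 86.1 and 80.9 TPM in Rbbp4 OE, where both values lay between those of the controls (log2 difference -0.049, -0.29 to 0.20, adjusted p = 0.788). Pitrm1, which overlaps Pfkp on the opposite strand, was at 54.5 and 63.9 TPM in the controls and at 37.1 and 35.6 TPM in Rbbp4 OE. The use of strand in the counting was not given in the sources used here, so reads of this pair may not have been told apart.

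The adjacent steps that split the sugar and interconvert its pieces moved in opposite directions. Aldoa encodes aldolase A, which cleaves fructose bisphosphate, and lies on chromosome 7, 126795234 to 126800751, on the minus strand (ENSMUSG00000030695.16). It was at 1347 and 1374 TPM in the controls and at 1769 and 1743 TPM in Rbbp4 OE. Both Rbbp4 OE libraries lay above both controls by more than the gap between libraries of a group, and the log2 fold change was 0.37 (SE 0.034, 0.28 to 0.45, adjusted p = 0.0065). Tpi1 encodes triosephosphate isomerase, which interconverts the triose phosphates that aldolase releases, and lies on chromosome 6, 124810586 to 124814296, on the minus strand (ENSMUSG00000023456.16). It was at 402 and 447 TPM in the controls and at 267 and 271 TPM in Rbbp4 OE. The groups were far apart and the log2 fold change was -0.66 (SE 0.060, -0.80 to -0.51, adjusted p = 0.0061), the largest in size among the 10 genes. Leaving out either Rbbp4 OE library ended both calls at adjusted p of 0.0794 without replicate 1 and 0.108 without replicate 2, and the Aldoa call also ended at 0.0511 and 0.0518 without Rbbp7 OE replicate 1 or 2, which are part of the shared spread. In those fits the log2 fold change stayed between 0.36 and 0.38 for Aldoa and between -0.67 and -0.65 for Tpi1. Over all alternatives it ran more widely, from 0.23 to 0.48 for Aldoa and from -0.73 to -0.55 for Tpi1, and neither sign turned.

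The next 3 genes, Gapdh, Pgk1 and Eno1, did not pass in Rbbp4 OE. Gapdh, the dehydrogenase of glyceraldehyde-3-phosphate and a common reference gene (ENSMUSG00000057666.18, chromosome 6, 125161715 to 125166467, minus strand), was at 6895 and 6679.5 TPM in the controls and at 6273 and 6372 TPM in Rbbp4 OE. Its libraries did not overlap, but the log2 difference of -0.10 (-0.18 to -0.025, adjusted p = 0.0899) did not pass. With median-of-ratios scaling, which sets the median gene near 0, its sign turned, at 0.0057. Pgk1, the kinase that makes the first ATP of the pathway (ENSMUSG00000062070.12, chromosome X, 106187100 to 106203699, plus strand), was at 288 and 337 TPM in the controls and at 264 and 261 TPM in Rbbp4 OE. It too was lower in both libraries without passing (log2 difference -0.25, -0.44 to -0.060, adjusted p = 0.0898). Eno1, the enolase (ENSMUSG00000063524.13, chromosome 4, 150236721 to 150248879, plus strand), was at 912 and 917 TPM in the controls and at 1009.8 and 990.3 TPM in Rbbp4 OE. Its libraries were higher without overlap, at a log2 difference of 0.13 (0.019 to 0.24, adjusted p = 0.121). A correction for GC content and transcript length moved that difference to -0.0073.

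The last genes of the chain, Pkm and Ldha, both fell in Rbbp4 OE, although the summed lactate dehydrogenase isozymes, given further on, did not stand apart from the controls. Pkm, the kinase that makes pyruvate (ENSMUSG00000032294.17, chromosome 9, 59656368 to 59679375, plus strand), was at 1668 and 1766 TPM in the controls and at 1520.2 and 1505 TPM in Rbbp4 OE. Ldha, the lactate dehydrogenase A subunit (ENSMUSG00000063229.15, chromosome 7, 46841475 to 46855627, plus strand), was at 812 and 882 TPM in the controls and at 716 and 725 TPM in Rbbp4 OE. Neither gene's groups overlapped. Pkm fell by 0.18 on the log2 scale (SE 0.041, adjusted p = 0.0447) and Ldha fell by 0.23 (SE 0.051, adjusted p = 0.0412). Both calls sat close to the threshold: of the 6 fits that each left out 1 library, only that without control replicate 1 kept them. Median-of-ratios scaling brought the log2 fold changes to -0.074 for Pkm and -0.12 for Ldha, with adjusted p of 0.349 and 0.145. That scaling also changed the split of all calls from 466 higher and 1143 lower to 716 higher and 712 lower.

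**Figure D2:**
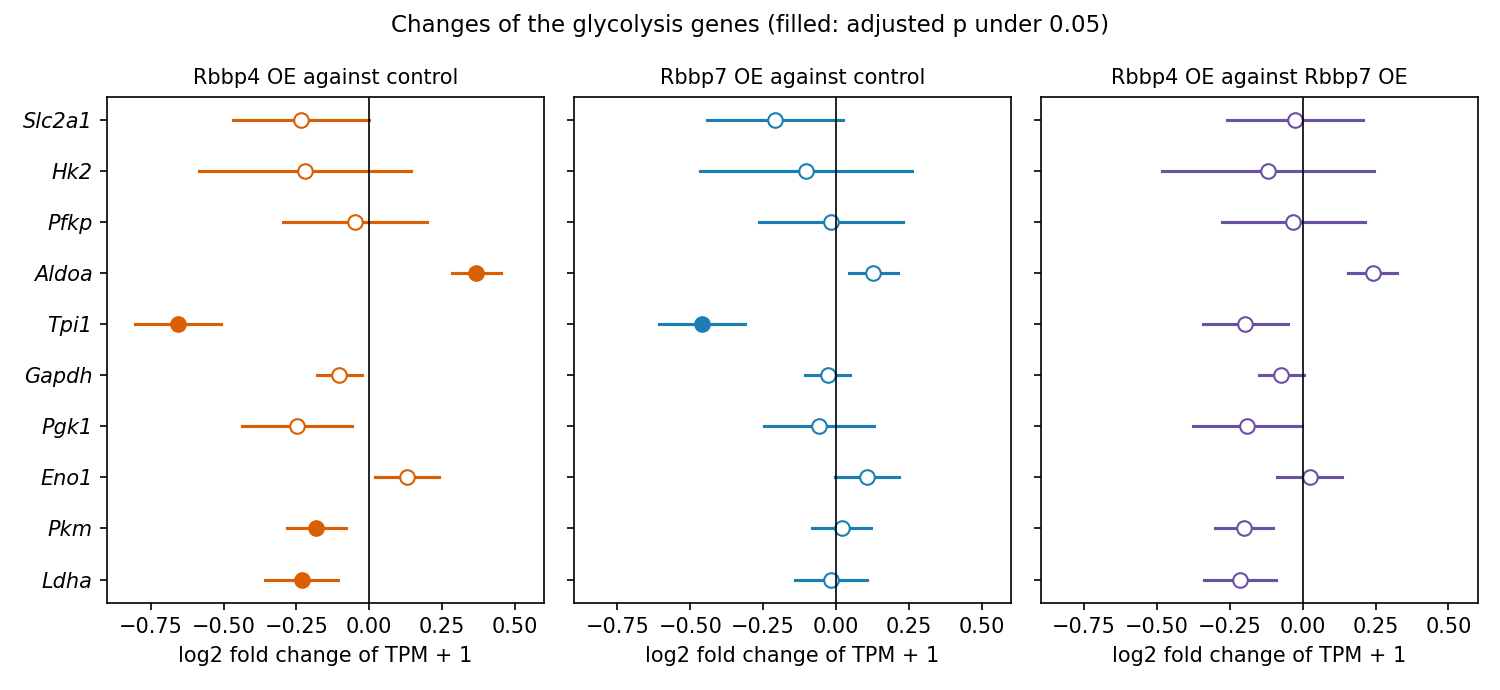
Log2 fold change of TPM + 1 for each glycolysis gene in the 3 comparisons, with 95% intervals from limma; filled points passed at an adjusted p under 0.05. In Rbbp4 OE against control, Aldoa lay at 0.37 and Tpi1 at -0.66, and in Rbbp7 OE against control only Tpi1, at -0.46, was filled.

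In Rbbp7 OE, Tpi1 fell by 27.3% and the other 9 genes did not pass. Thus 1 of 10 genes passed, lower, against 0.487% of all genes tested (0.29% lower) and 1.55% of the genes at or above 85.2 TPM. Tpi1 was at 309 and 307 TPM, below both controls at 402 and 447 TPM and above both Rbbp4 OE libraries. Its log2 fold change was -0.46 (SE 0.060, -0.61 to -0.31, adjusted p = 0.0495, limma). The call lay at the threshold and was lost in each of the 6 fits that left out 1 library, at adjusted p of 0.0630 to 0.355 and a log2 fold change of -0.54 to -0.38. The median log2 fold change of the 10 genes was -0.023, beside -0.0037 over all genes tested. By the stricter rule, 0 of 10 genes passed with limma and 0.0353% of all genes did, and 2 of 10 had an unadjusted p under 0.05 beside 15.4% of all genes.

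The 2 genes with an unadjusted p under 0.05 in Rbbp7 OE were Tpi1 and Aldoa. Aldoa was at 1492 and 1481 TPM, above both controls and below both Rbbp4 OE libraries, with a log2 difference of 0.13 from control (0.044 to 0.21, adjusted p = 0.188). Slc2a1, at 99.5 and 104 TPM, was below both controls (log2 difference -0.21, -0.44 to 0.024, adjusted p = 0.370). Gapdh, at 6651 and 6662 TPM, was below both controls by a log2 difference of -0.028 (-0.11 to 0.050). Eno1, at 1018 and 951 TPM, was above both controls by 0.11 (-0.0046 to 0.22). The remaining genes had libraries that overlapped with the controls. Hk2, at 88.0 and 96.9 TPM, and Pfkp, at 87.1 and 83.5 TPM, lay inside the range of their controls. Pgk1 was at 299.8 and 299 TPM, also between its controls. Pkm, at 1759.6 and 1719 TPM, differed from control by 0.020 on the log2 scale (-0.081 to 0.12). Ldha, at 849 and 824 TPM, differed by -0.017 (-0.14 to 0.11). For Pfkp, Pgk1, Pkm and Ldha the intervals leave out a decrease as large as that of Tpi1, but not a small change in either direction.

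Both overexpression groups were compared with the same controls, so values shared by the 2 comparisons do not support each other. The direct comparison of Rbbp4 OE with Rbbp7 OE does not use the controls except for the spread. In it, 0 of 10 genes passed with limma, against 0.304% of all genes tested and 0.716% of those at or above 85.2 TPM, while 5 of 10 had an unadjusted p under 0.05 beside 19.0% of all genes. By the stricter rule 0 of 10 passed, and 0.0494% of all genes did. Aldoa was higher in both Rbbp4 OE libraries by a log2 difference of 0.24 (0.16 to 0.32, adjusted p = 0.0766). The genes lower in Rbbp4 OE with an interval below 0 were Ldha, Pkm, Tpi1 and Pgk1. The log2 difference was -0.22 for Ldha (-0.34 to -0.091, adjusted p = 0.132) and -0.20 for Pkm (-0.30 to -0.10, adjusted p = 0.123). For Tpi1 it was -0.20 (-0.34 to -0.051, adjusted p = 0.183), and for Pgk1 it was -0.19 (-0.38 to -0.0023, adjusted p = 0.258). The groups did not overlap for 6 of the 10 genes, 1 higher and 5 lower, beside 54.7% of all genes. A difference between the homologs was therefore not shown for any of the 10 genes, and the calls for Aldoa, Pkm and Ldha in Rbbp4 OE are not shown to be particular to it.

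Non-overlap was frequent in all comparisons with so few libraries. Between Rbbp4 OE and control, 8 of 10 glycolysis genes did not overlap (2 higher and 6 lower), beside 57.9% of all genes tested (20.8% higher and 37.1% lower). Between Rbbp7 OE and control, 5 of 10 did not overlap (2 higher and 3 lower), beside 44.5% of all genes (21.2% higher and 23.4% lower). The summed level of the 10 genes was 12597 and 12739.9 TPM in the controls, 12086 and 12138 TPM with Rbbp4 OE, and with Rbbp7 OE 12654 and 12529.6 TPM. That sum was 1.27% of all transcripts in the controls, 1.21% in Rbbp4 OE and 1.26% in Rbbp7 OE on average. Both Rbbp4 OE sums lay below both controls, but with median-of-ratios scaling the mean sum was 12319 in the controls and 12687 in Rbbp4 OE, so the order depended on the scaling.

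Several steps are served by more than 1 isozyme, so the share that each listed gene gave of its step was read beside its level. Slc2a1 gave 16.8% and 17.9% of the summed TPM of 4 glucose transporter genes in the controls, 25.4% and 24.3% with Rbbp4 OE, and with Rbbp7 OE 20.9% and 21.0%. Its share was thus higher in both overexpression groups, although its own level was not. The summed level of these transporter genes was 641 and 724 TPM in the controls and 404 and 403 TPM with Rbbp4 OE. With Rbbp7 OE the sum was 476 and 496 TPM, so it was below both controls in each overexpression library. Slc2a3, which encodes the high-affinity transporter GLUT3 and supplied most of this step, was at 533 and 594 TPM in the controls, 299.9 and 303 TPM with Rbbp4 OE, and with Rbbp7 OE 376 and 390.0 TPM. All 4 overexpression libraries of Slc2a3 lay below both controls. It fell by 0.90 on the log2 scale in Rbbp4 OE (SE 0.062, adjusted p = 0.0035, limma) and by 0.55 in Rbbp7 OE (adjusted p = 0.0334). The first call was lost without Rbbp4 OE replicate 2 (adjusted p = 0.0816), and the second in each of the 6 fits that left out 1 library (0.0620 to 0.316). The direct difference between both overexpression groups was -0.34 (-0.49 to -0.19, adjusted p = 0.103).

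Lactate dehydrogenase showed the reverse, a share that was lower in Rbbp4 OE. Ldha gave 80.9% and 82.8% of the summed TPM of Ldha, Ldhb and Ldhc in the controls, 71.5% and 72.0% with Rbbp4 OE, and with Rbbp7 OE 82.9% and 81.9%. Ldhb, whose subunit is known from tissues that use lactate, was at 188 and 181 TPM in the controls, 285 and 281 TPM with Rbbp4 OE, and with Rbbp7 OE 173 and 181 TPM. The Rbbp4 OE libraries of Ldhb stood apart from all 4 others. It rose by 0.61 on the log2 scale in Rbbp4 OE (SE 0.051, 0.49 to 0.74, adjusted p = 0.0054, limma), and leaving out Rbbp4 OE replicate 1 or 2 ended the call at 0.0591 and 0.0919. Against Rbbp7 OE it was higher by 0.67 (0.55 to 0.80, adjusted p = 0.0127), a call that none of the 6 fits without 1 library kept (0.0504 to 0.135). The summed level of the step was 1003 and 1065 TPM in the controls, 1002 and 1007 TPM with Rbbp4 OE, and with Rbbp7 OE 1024 and 1007 TPM, so that the groups overlapped.

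Of the kinase steps, hexokinase had a lower Hk2 share in both Rbbp4 OE libraries than in the controls. Hk2 gave 63.5% and 68.1% of the hexokinase sum in the controls and 55.2% and 61.0% in Rbbp4 OE, beside Hk1, which was at 49.6 and 52.5 TPM in the controls and at 62.4 and 59.1 TPM in Rbbp4 OE without passing (log2 difference 0.25, adjusted p = 0.0941). In Rbbp7 OE the Hk2 share was 63.1% in both libraries. Pfkp gave 48.7% to 52.3% of the phosphofructokinase sum in all libraries, with Pfkl and Pfkm giving the rest. Pgk2 was listed at 0 in all libraries, Gapdhs at 0 or 0.07 TPM, and Pklr at 0.59 to 0.93 TPM. With 2 libraries a group, no exact permutation test of these shares can go below a two-sided p of 0.333, so no test is given.

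**Figure D3:**
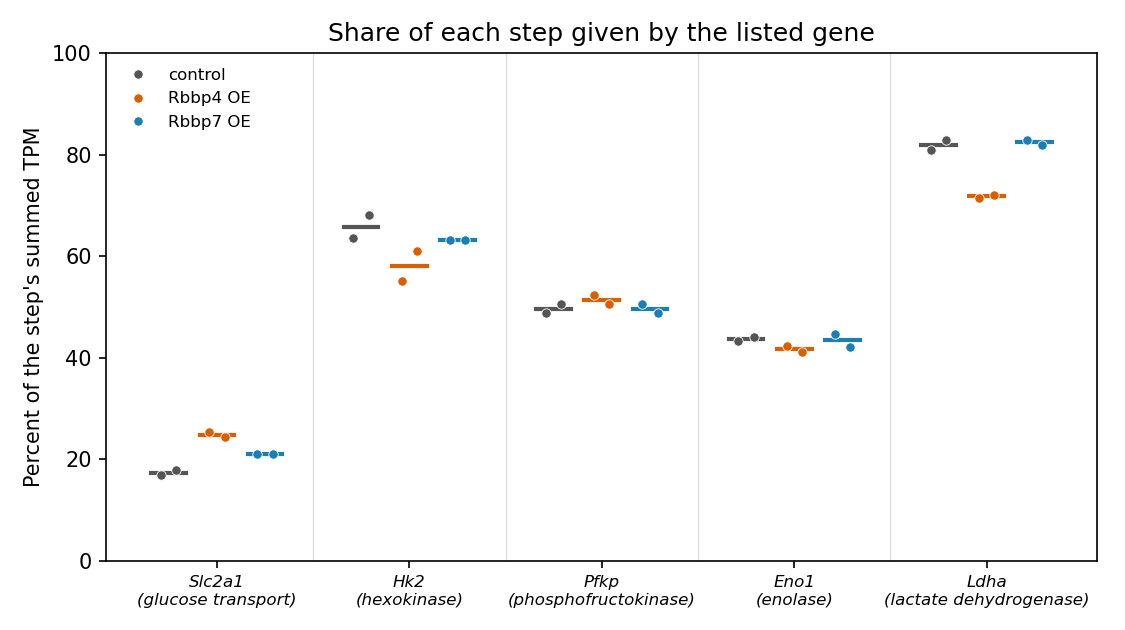
Percent of the summed TPM of each step's isozymes that the listed gene gave, in each library; points are the 2 libraries of each group and bars their mean. The share of Slc2a1 was 16.8% to 17.9% in the controls and 24.3% to 25.4% in Rbbp4 OE, and that of Ldha was 80.9% to 82.8% and 71.5% to 72.0%.

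The enolase step had to be read with its copies. Eno1 gave 41.2% to 44.7% of the enolase sum, because Eno1b, an annotated coding gene whose transcript was 99.5% identical to that of Eno1, was listed at 1185 and 1158 TPM in the controls, 1366 and 1401 TPM with Rbbp4 OE, and with Rbbp7 OE 1247 and 1298 TPM. Eno1b was higher in both Rbbp4 OE libraries and passed (log2 fold change 0.24, adjusted p = 0.0208). Its call was lost with no filter (adjusted p = 0.0644, limma) and in the 2-group fit (0.0722). Without 1 library its change was 0.22 to 0.26, and most of these fits lost the call. The processed pseudogene Gm4735 was at 86.1 to 130 TPM. Reads shared between such sequences can be split in different ways by an estimator, so the level of Eno1 alone is uncertain. Summed with its 3 copies, Eno1 was at 2183 and 2162 TPM in the controls and at 2507 and 2492 TPM in Rbbp4 OE, and this sum passed (log2 fold change 0.20, adjusted p = 0.0181). That sum was not refitted under the other scalings or without single libraries. The copies of Pgk1 added 0.80% to 1.87% to its level, and those of Pkm and Ldha at most 0.14%. The copies found for Tpi1 and Gapdh were listed at 0, and no copy was found for Slc2a1, Hk2, Pfkp or Aldoa. Of the overlapping genes, Spsb2 was at 5.99 to 8.56 TPM beside Tpi1, Iffo1 at 12.6 to 15.2 TPM beside Gapdh and Fam57b at 0.53 to 1.13 TPM beside Aldoa.

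The wider pathway was read from 7 lists of 81 further genes, of which 72 passed the filter. In Rbbp4 OE, 3 rose and 7 fell, or 13.9% of the 72 beside 11.4% of all genes tested. Of 18 tested isozymes and remaining steps, Ldhb and Eno1b rose, Slc2a3 fell and 15 did not pass, beside 3.29% of all genes that rose and 8.07% that fell. Gpi1, the isomerase between hexokinase and phosphofructokinase, was at 446 and 409 TPM in the controls and at 502 and 478 TPM in Rbbp4 OE (log2 difference 0.20, adjusted p = 0.0751). Pgam1, the mutase before enolase, was at 1035 and 1131 TPM in the controls and at 1077 and 1097 TPM in Rbbp4 OE, inside the range of the controls.

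Among 13 genes of pyruvate and lactate fate, 2 fell and 11 did not pass, beside 8.07% of all genes that fell. Slc16a1, which encodes the lactate and pyruvate carrier MCT1, was at 36.2 and 39.3 TPM in the controls, 22.6 and 23.6 TPM with Rbbp4 OE, and with Rbbp7 OE 27.0 and 25.5 TPM. It fell by 0.69 on the log2 scale in Rbbp4 OE (adjusted p = 0.0112, limma), and its lower level in Rbbp7 OE did not pass (-0.51, adjusted p = 0.0877). The Slc16a1 call in Rbbp4 OE was lost in the 2-group fit (adjusted p = 0.0521, limma). Without 1 library its change was -0.74 to -0.63, and most of these fits lost the call. Pdhb, a subunit of pyruvate dehydrogenase, fell by 0.23 in Rbbp4 OE (adjusted p = 0.0372), from 155 and 158 TPM to 132 and 133 TPM. That call was lost with median-of-ratios scaling (-0.13, adjusted p = 0.180), quantile normalization, rescaling to nuclear protein-coding genes, the GC and length correction, the replicate block and the 2-group fit, and held in 1 of the 6 fits without 1 library. Of 5 regulators of flux, Tigar, a phosphatase that lowers fructose-2,6-bisphosphate, fell by 0.49 (adjusted p = 0.0199), from 79.96 and 78.4 TPM to 57.8 and 54.2 TPM. The Tigar call held in 0 of the 6 fits without 1 library (adjusted p of 0.0534 to 0.155) and was lost with median-of-ratios scaling (-0.39, adjusted p = 0.0510) and in the 2-group fit. Of 7 pentose phosphate genes and 6 tested gluconeogenesis genes, 0 passed with limma, beside 11.4% of all genes that passed. In each of these lists 1 gene had an unadjusted p under 0.05, beside 29.6% of all genes.

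Of 12 transcription regulators of glycolysis, 3 fell and 9 did not pass, beside 8.07% of all genes that fell. Hif1a encodes the oxygen-regulated subunit of HIF-1, a known activator of glycolysis genes, and was at 27.4 and 33.4 TPM in the controls, 16.1 and 15.2 TPM with Rbbp4 OE, and with Rbbp7 OE 26.5 and 25.5 TPM. It fell by 0.91 on the log2 scale in Rbbp4 OE (SE 0.12, adjusted p = 0.0118, limma), and the direct difference from Rbbp7 OE was -0.70 (-0.98 to -0.42, adjusted p = 0.0950). The Hif1a call against control was lost in the 2-group fit (adjusted p = 0.0563, limma). Leaving out 1 library gave a Hif1a change of -1.05 to -0.77, and most of these fits lost the call. Arnt, the partner of HIF-1α, fell by 0.88 (adjusted p = 0.0183), from 23.1 and 29.9 TPM to 14.2 and 13.6 TPM. The Arnt call was lost with no filter (adjusted p = 0.0508, limma) and in the 2-group fit (0.0695). Without 1 library its change was -1.06 to -0.69, and most of these fits lost the call too. Vhl, which targets HIF-1α for degradation, fell by 0.73 (adjusted p = 0.0386), from 11.2 and 13.4 TPM to 6.49 and 7.54 TPM. The Vhl call held in 0 of the 6 fits without 1 library (adjusted p of 0.0611 to 0.206) and was lost with no filter, the replicate block and the 2-group fit. Myc, another known activator of glycolysis genes, was at 25.3 and 23.2 TPM in the controls and at 26.4 and 24.7 TPM in Rbbp4 OE (log2 difference 0.070, adjusted p = 0.665). Of 11 tested further HIF targets, Ddit4 rose by 0.63 (adjusted p = 0.0182), from 20.2 and 22.1 TPM to 32.0 and 34.5 TPM, and 10 did not pass, beside 3.29% of all genes that rose. The Ddit4 call was lost in the 2-group fit (adjusted p = 0.0587, limma). Without 1 library its change was 0.57 to 0.69, and most of these fits lost the call. Among these 11 targets, 9 had a log2 difference below 0 and 2 above, with a median of -0.22 beside -0.077 over all genes tested. Without overlap of libraries, 6 targets were lower and 1 higher, beside 37.1% and 20.8% of all genes. In Rbbp7 OE, 1 of the 72 genes, Slc2a3, passed (1.39%, beside 0.487% of all genes tested), and in the direct comparison 1 did, Ldhb (beside 0.304%). Of the 10 calls in Rbbp4 OE, 8 held without control replicate 1 and 3 without control replicate 2, 1 without Rbbp4 OE replicate 1 and 0 without replicate 2, and 2 without either Rbbp7 OE library.

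**Figure D4:**
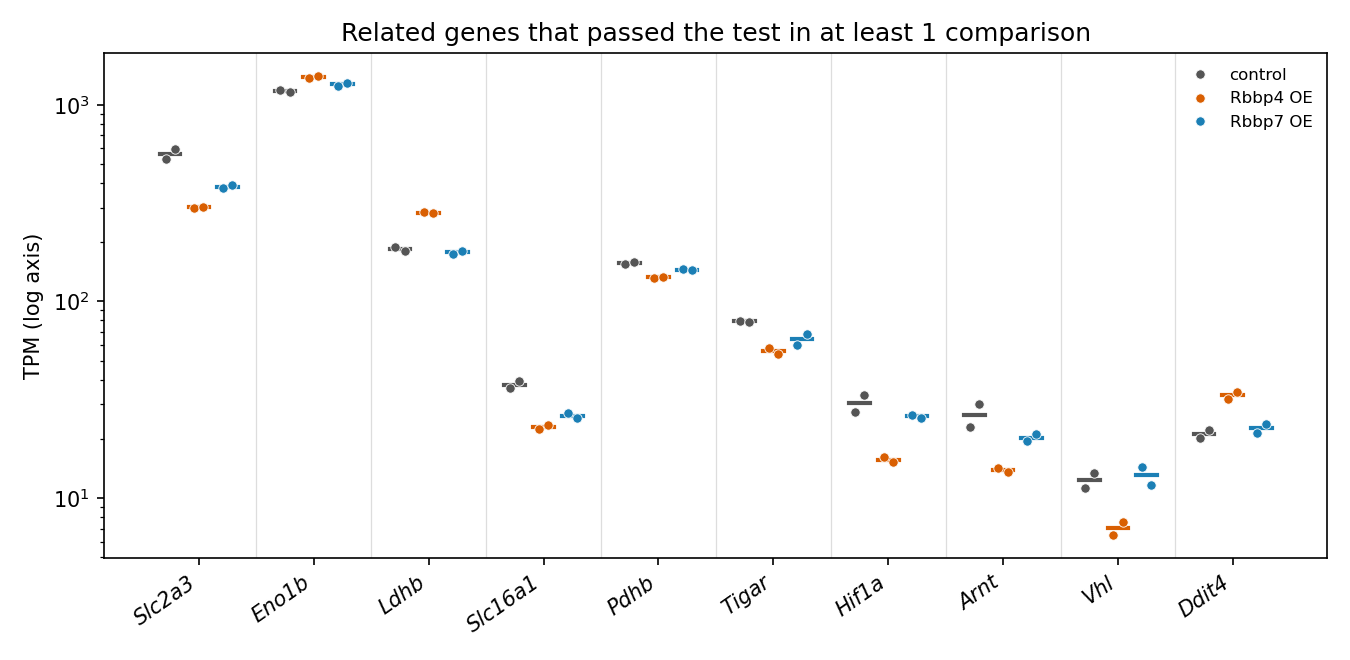
TPM of the 10 further pathway genes that passed in at least 1 comparison, in each library, on a log axis; points are the 2 libraries of each group and bars their mean. Ldhb and Ddit4 were higher in Rbbp4 OE than in all other libraries, and Slc2a3 and Slc16a1 were lower than control in both overexpression groups.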

How the data were processed

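Poly(A) RNA-seq libraries of 46C mESCs were grouped by their labels. By the study's methods, the authors trimmed the reads, aligned them to mm10 with STAR and RSEM, and counted genes with TEtranscripts. The tool behind the deposited TPM is not stated and was taken to be RSEM, which bears on how reads shared by copies such as Eno1 and Eno1b were split. The deposited values are TPM, estimates per transcript length set to the same total in each library, so depth is unknown and no counting interval can be given. Gene names and coordinates came from GENCODE M21 (GRCm38), with 55141 of 55401 identifiers matched. Of 2 genes named Aldoa, that overlapping the RefSeq gene most was used.

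The study tested counts, which TPM are not, so limma-trend (limma 3.58.1, R 4.3.3) was fitted to log2(TPM + 1) over all 6 libraries, with Benjamini-Hochberg adjustment over the 14156 genes whose mean TPM was 0.5 or more. This scale understates the change of low genes. A trial of the fit used data simulated from its own variances, with normal noise independent between genes and libraries. That trial says nothing of how far the calls depend on single libraries. The text names the 10 genes, genes of the pathway lists that passed in any comparison, isozymes of the step shares (the aldolase share is not reported here), Gpi1, Pgam1, Hif1a and Myc, and Rbbp4 and Rbbp7 as checks. Pitrm1 and the other overlapping genes, and the copies of Eno1, follow from position and sequence. The members and lists were chosen with earlier results of these data known. Copies were annotated transcripts aligned by blastn at 95% identity over 80% of their length in 1 alignment. Alternatives varied the pseudocount (0.1 or 5), the filter (none, or 5 TPM on average), the scaling (median-of-ratios, quantile normalization, or rescaling to nuclear protein-coding genes), the fit (GC and length correction, replicate block, only the groups compared, robust trend), sums with copies, and the libraries (each left out in turn).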

Additional observations from a re-analysis of the deposited data

Results flagged for a closer look

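Ldhb was the single gene of the pathway lists whose level differed between both overexpression groups by the direct test, with an adjusted p of 0.0127 (limma) and 285 and 281 TPM in Rbbp4 OE against 173 and 181 TPM in Rbbp7 OE. The Ldhb call was lost with the replicate block (adjusted p = 0.0659, limma) and in the 2-group fit (0.0665). Without 1 library its log2 difference was 0.64 to 0.70, and none of these fits kept the call. The overexpressed genes differed in the same comparison, Rbbp4 with an adjusted p of 0.00192 and Rbbp7 with an adjusted p of 8.31e-05. With 2 libraries in each group, a single library that stood apart could not be tested for.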

How the results depend on the processing

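Few libraries, unknown depth and the scaling of TPM limit these results. The 4 glycolysis genes that passed in Rbbp4 OE became 2 with no filter, 2 with median-of-ratios scaling, 2 when rescaled to nuclear protein-coding genes, 2 with the replicate block and 1 in a 2-group fit, and 0 to 6 when a library was left out (6 without control replicate 1, 0 without either Rbbp4 OE library). Calls over all genes moved too, from 1609 to 709 with no filter, 1428 with median-of-ratios scaling, 1388 with rescaling and 158 in the 2-group fit, and to 1574 and 282 without control replicate 1 or 2, 151 and 47 without Rbbp4 OE replicate 1 or 2, and 126 and 127 without Rbbp7 OE replicate 1 or 2; the cause was not tested. The 1 gene in Rbbp7 OE became 0 with pseudocount 5, no filter, rescaling, the GC and length correction, the replicate block and the 2-group fit, and 0 in each fit that left out a library. The counts in the direct comparison, and those by the stricter rule, were 0 in each alternative. Same-numbered libraries did not deviate together (r of -0.026, 0.034 and -0.031), so the block says nothing of a weaker effect; it moved the calls over all genes from 1609 to 900, 69 to 9 and 43 to 9. Fits that left a group with 1 library assume that it varies like the other groups.

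With median-of-ratios scaling the summed TPM was 12319 in the controls, 12687 in Rbbp4 OE and 12312 in Rbbp7 OE. Quantile normalization let Gapdh pass in Rbbp4 OE (-0.16). Without control replicate 1, Slc2a1 (-0.37) and Pgk1 (-0.36) passed in Rbbp4 OE as well. Signs turned only for log2 differences that did not pass. In Rbbp4 OE against control, Pfkp turned with median-of-ratios (0.058), quantile (0.037) and GC and length (0.13), Gapdh with median-of-ratios (0.0057), Eno1 with GC and length (-0.0073), and Pgam1 with quantile (-0.034) and GC and length (-0.035). In Rbbp7 OE against control, Pfkp turned with quantile (0.010), rescaling (0.012) and GC and length (0.0069), Gapdh with rescaling (0.0014), Pkm with GC and length (-0.047), Ldha with quantile (0.023) and rescaling (0.012), and Rbbp4 with quantile (0.0040) and GC and length (0.019). In the direct comparison, Slc2a1 turned with median-of-ratios (0.072) and quantile (0.018), Pfkp with median-of-ratios (0.067), quantile (0.027) and GC and length (0.12), Gapdh with median-of-ratios (0.025), Eno1 with quantile (-0.053) and GC and length (-0.045), and Pgam1 with median-of-ratios (0.071).

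Leaving out a library gave ranges that crossed 0 for Pfkp in Rbbp4 OE (-0.19 to 0.090), Rbbp7 OE (-0.16 to 0.12) and the direct comparison (-0.076 to 0.013), Pgam1 in Rbbp4 OE (-0.057 to 0.071) and Rbbp7 OE (-0.029 to 0.099), Hk2 in Rbbp7 OE (-0.29 to 0.089) and the direct comparison (-0.25 to 0.015), Slc2a1 (-0.059 to 0.0076) and Eno1 (-0.026 to 0.072) in the direct comparison, and Pgk1 (-0.17 to 0.054), Pkm (-0.021 to 0.061), Ldha (-0.077 to 0.043) and Vhl (-0.072 to 0.22) in Rbbp7 OE.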
